A study of Mus musculus with 4 samples.

Results

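The tumour necrosis factor (TNF) ligand and receptor superfamilies were examined in mouse Pan02 pancreatic tumours from animals given antibodies against PD-1, LIF or both. All gene symbols of the feature list that match the Tnfsf and Tnfrsf number series were taken, together with Tnf, Lta, Ltb, Ltbr, Fas, Fasl, Cd40, Cd40lg, Cd27 and Cd70. The rule found 42 genes among 32285, of which 32 came from the symbol pattern and 10 were named one by one. They are 17 ligand genes, 24 receptor genes and 1 antisense RNA, Tnfsf13os, and they lie on 14 chromosomes, with 9 on chromosome 4 and 8 on chromosome 17. Each of the 42 had at least 1 UMI (a unique molecular identifier, which counts 1 captured transcript).

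TNF family ligands are mostly trimeric membrane proteins, some of them shed, and their receptors recruit TRAF adaptors or death-domain adaptors. The TRAF branch leads to NF-kappaB and the death-domain branch can lead to caspase-8 and cell death. In tumours the family is known for the co-stimulation of T cells (4-1BB, OX40, GITR, CD27), for killing through Fas ligand, and for the inflammatory actions of TNF itself.

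The study asks how blockade of PD-1, an inhibitory receptor of T cells, and of LIF (leukaemia inhibitory factor), a cytokine of the interleukin-6 family, changes the cells of these tumours, alone and together. Female C57BL/6 mice aged 6 to 7 weeks carried subcutaneous tumours of the Pan02 line, a mouse pancreatic ductal carcinoma line, and treatment began at a tumour size of about 50 mm3. There were 4 groups, each 1 single-cell 3' RNA library: anti-PD-1 (clone RMP1-14), anti-LIF, combo (both antibodies) and control (IgG). The labels state that 3 samples were combined per library, so animals cannot be told apart, no comparison has replicates, and no p-value is given. Injections were intraperitoneal, 3 times a week until the endpoint, with 200 µg of anti-PD-1 and 25 mg/kg of IgG or anti-LIF. The protocol text can be read as giving anti-PD-1 to every group; the groups are those of the treatment labels.

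The libraries held 15191 (anti-PD-1), 15046 (anti-LIF), 17472 (combo) and 20393 (control) cell barcodes with 57720774 to 111164731 UMIs each, and 63443 barcodes passed the cell filter with a median of 1674.5 to 2288 UMIs. A marker gate placed 50545 of them (79.7%) in 18 classes, 15.9% of the placed cells lay near the limit of the gate, and 5915 cells lay just outside it. The number of cells differed between libraries, for example 4593, 4519, 4647 and 611 macrophages or monocytes in anti-PD-1, anti-LIF, combo and control. The labels call the material Pan02 cells, but 10821 placed cells were cancer cells and the rest were host cells. Xist, which is transcribed in female cells, was at 3.78 to 9.38 CPM (counts of a gene per 1e+06 UMIs) in the cancer class and at 109 to 155 CPM in fibroblasts. Of the 68102 barcodes, 3844 had a sequence that occurred in more than 1 library.

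In the following, a level is the CPM of the UMIs summed over a class of 1 library, and a difference is the log2 ratio of 2 such levels. Brackets give the exact 95% interval of the ratio, which covers counting error and not the spread between animals. A gene was counted in a class where at least 10 UMIs were expected in the smaller library. Counts of higher and lower members are counts of differences past 2-fold. Library counts come from the 3' end, so levels are compared for 1 gene between classes or libraries and not between genes.

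Of the 42 members, 36 reached 10 CPM in a class with at least 200 cells, pooled over the 4 libraries. Lta was the lowest of these at 11.4 CPM, and the other 6 (Tnfrsf13c, Tnfrsf14, Tnfrsf17, Tnfsf13os, Tnfsf15 and Tnfsf18) peaked at 0.555 to 8.63 CPM in the 13 classes of that size. For 11 of the 36, the levels in the top class over the libraries did not overlap those of the next class. For 23 of the 36, the top class led in every library that could be compared. Neither count was made for all genes, so they describe the members and are not set against a background. Tnfrsf13c and Tnfrsf17 were singled out after their values were seen. Tnfrsf13c, the BAFF receptor of B cells, had 160 UMIs (504 CPM) in the 161 B cells. Tnfrsf17, which encodes BCMA, had 41 UMIs (48.7 CPM) in the 182 plasma cells.

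**Figure D1:**
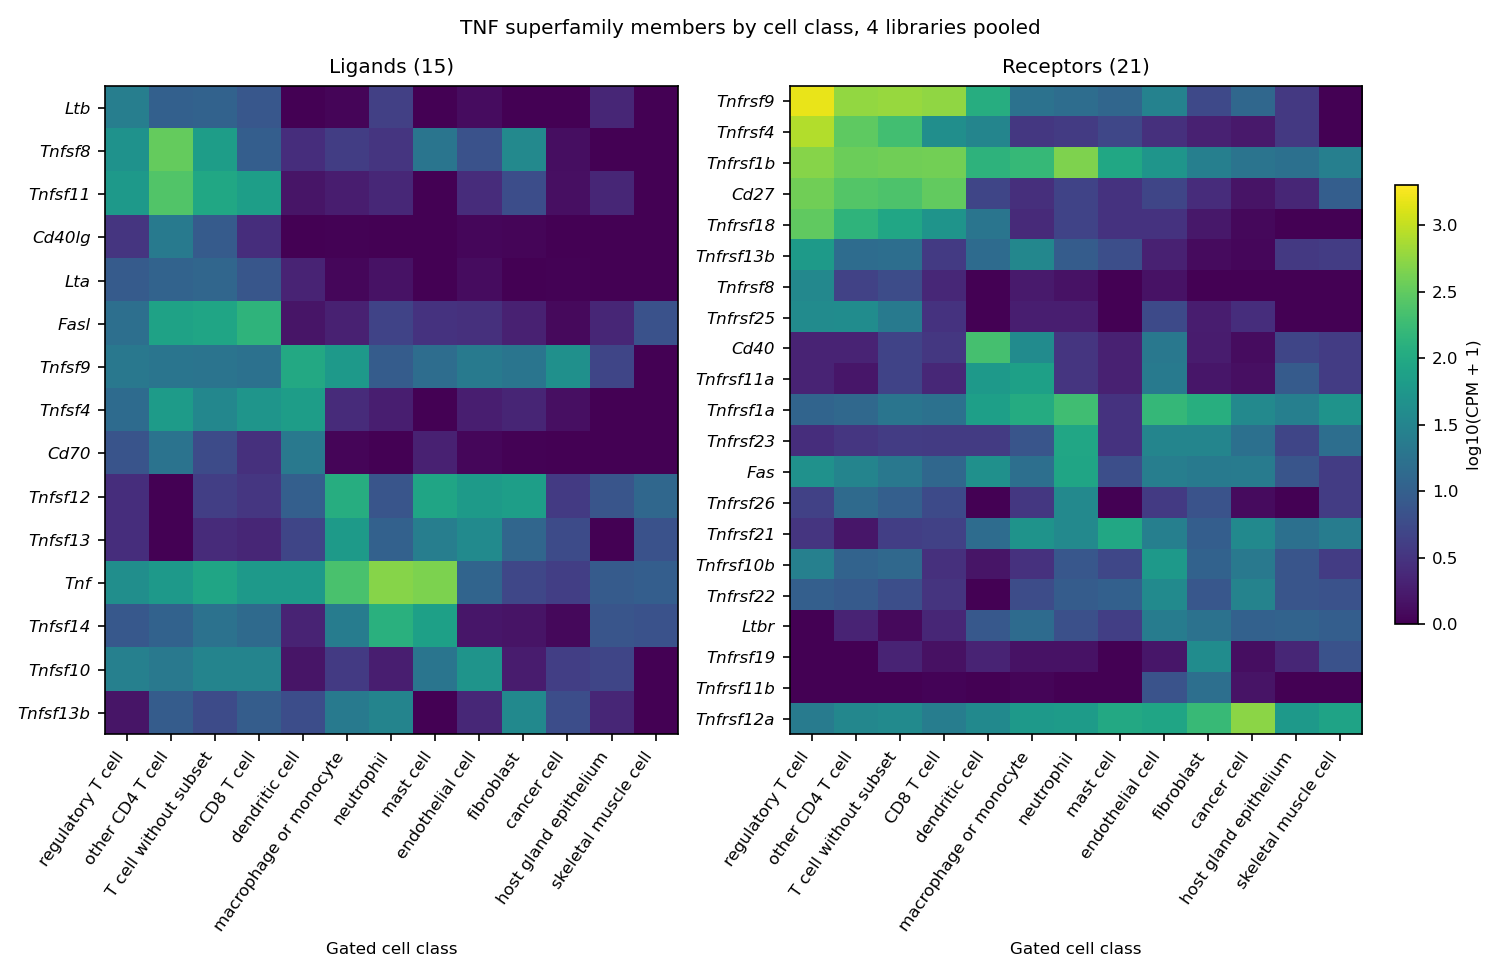
Levels of the members in each cell class, pooled over the 4 libraries, as log10(CPM + 1), with the 15 ligand genes and 21 receptor genes that reached 10 CPM in rows and classes in columns. Receptors of the co-stimulatory group are brightest in regulatory T cells (Tnfrsf9 at 1572 CPM, Tnfrsf4 at 830 CPM), Tnf in neutrophils (499.6 CPM) and Tnfrsf12a in cancer cells (533 CPM).

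Among the ligands, T cell classes led the ranked classes for Fasl (CD8 T cells, 137 CPM) and Cd40lg (other CD4 T cells, 21.4 CPM). They also led for Tnfsf11, which encodes RANKL (other CD4 T cells, 254 CPM), and Tnfsf8, the CD30 ligand (other CD4 T cells, 331 CPM). Lta was highest in T cells without a subset (11.4 CPM) and Ltb in regulatory T cells (25.0 CPM). NK cells (172) were too few to be ranked. Their Fasl level was 298 CPM in combo and 95.4 CPM in control, against 244 and 106 CPM in CD8 T cells. Dendritic cells, of which there were 486, led for the co-stimulatory ligands Cd70 (20.5 CPM), Tnfsf4 (OX40 ligand, 67.2 CPM) and Tnfsf9 (4-1BB ligand, 98.2 CPM), and for Cd40 (213 CPM), the receptor through which helper T cells act on them. For Tnfsf4 the lead was in the pooled level and in 1 of 4 libraries, the next class being other CD4 T cells at 64.1 CPM. Macrophages or monocytes led for Tnfsf12 (TWEAK, 111 CPM) and Tnfsf13 (APRIL, 61.2 CPM). Neutrophils led for Tnf and for Tnfsf14, which encodes LIGHT (122 CPM), endothelial cells for Tnfsf10, which encodes TRAIL (49.9 CPM), and fibroblasts for Tnfsf13b, which encodes BAFF (35.4 CPM). Mast cells, at 446 CPM, were the next class for Tnf, and neutrophils were above them in 2 of 4 libraries.

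Among the receptors, regulatory T cells led for Tnfrsf9 (4-1BB), Tnfrsf4 (OX40), Tnfrsf18 (GITR, 308 CPM), Tnfrsf1b (TNF receptor 2, 498 CPM), Cd27 (383 CPM), Tnfrsf13b (TACI, 62.7 CPM) and Tnfrsf8 (CD30, 33.3 CPM). B cells (161) and plasma cells (182) fell short of 200 cells and were not ranked, and with no cell filter the top class of Tnfrsf13b was plasma cells. Regulatory T cells were above the next class, neutrophils, in 2 of 4 libraries for Tnfrsf1b. Other CD4 T cells led for Tnfrsf25, or DR3 (39.9 CPM). Neutrophils led for Tnfrsf1a (TNF receptor 1, 193 CPM), Fas (86.7 CPM) and the decoy-receptor locus genes Tnfrsf23 (89.4 CPM) and Tnfrsf26 (34.5 CPM). Endothelial cells led for Ltbr (lymphotoxin beta receptor, 23.6 CPM), Tnfrsf10b (the mouse TRAIL receptor, 59.3 CPM) and Tnfrsf22 (36.5 CPM, above the next class in 2 of 4 libraries). Fibroblasts led for Tnfrsf11b (osteoprotegerin, a soluble decoy of RANKL, 15.2 CPM) and Tnfrsf19 (39.7 CPM), macrophages or monocytes for Tnfrsf11a (RANK, 74.4 CPM), mast cells for Tnfrsf21 (DR6, 94.1 CPM) and cancer cells for Tnfrsf12a (the TWEAK receptor Fn14, 533 CPM). Of 22 known ligand and receptor pairs, 16 had both genes at 10 CPM or more, and 2 of the 16 had the same top class: Tnf with Tnfrsf1a in neutrophils and Tnfsf10 with Tnfrsf10b in endothelial cells.

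Tnfrsf4 and Tnfrsf18 lie 9552 bases apart on mouse chromosome 4, the chromosome that also holds Tnfrsf9 and Tnfrsf8. The 250 bases before the transcription starts of these 4 regulatory T cell receptor genes are shown, since the levels of Tnfrsf4, Tnfrsf8 and Tnfrsf9 did not overlap between regulatory T cells and the next class and Tnfrsf18 differed past 2-fold between libraries. The sequences are from RefSeq on GRCm38.p6, written 5′ to 3′ on the strand of the gene, and capitals mark a match to the kappaB consensus, the site bound by NF-kappaB dimers. The windows are Tnfrsf4 at chr4:156013445-156013694 (plus strand), Tnfrsf18 at chr4:156026072-156026321 (plus strand), Tnfrsf9 at chr4:150919905-150920154 and chr4:150927749-150927998 (2 annotated starts, plus strand) and Tnfrsf8 at chr4:145315165-145315414 (minus strand).
Tnfrsf4: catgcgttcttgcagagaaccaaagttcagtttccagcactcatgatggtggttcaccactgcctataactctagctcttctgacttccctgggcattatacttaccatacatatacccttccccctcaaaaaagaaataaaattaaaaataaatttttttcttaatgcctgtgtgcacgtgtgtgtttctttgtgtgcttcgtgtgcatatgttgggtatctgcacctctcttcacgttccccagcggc
Tnfrsf18: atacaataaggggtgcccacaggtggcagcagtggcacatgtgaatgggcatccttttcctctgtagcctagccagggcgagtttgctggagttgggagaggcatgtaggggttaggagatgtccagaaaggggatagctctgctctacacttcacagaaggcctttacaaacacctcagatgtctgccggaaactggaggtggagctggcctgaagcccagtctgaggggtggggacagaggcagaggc
Tnfrsf9, start 1: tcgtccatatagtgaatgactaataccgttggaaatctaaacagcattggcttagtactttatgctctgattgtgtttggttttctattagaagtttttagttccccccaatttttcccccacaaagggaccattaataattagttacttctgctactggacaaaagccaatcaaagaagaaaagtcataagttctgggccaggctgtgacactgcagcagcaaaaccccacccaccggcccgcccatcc
Tnfrsf9, start 2: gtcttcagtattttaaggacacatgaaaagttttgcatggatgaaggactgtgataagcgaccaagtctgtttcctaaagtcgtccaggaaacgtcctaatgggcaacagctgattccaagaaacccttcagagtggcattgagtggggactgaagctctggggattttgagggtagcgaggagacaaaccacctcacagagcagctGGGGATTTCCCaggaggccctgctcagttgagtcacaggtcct
Tnfrsf8: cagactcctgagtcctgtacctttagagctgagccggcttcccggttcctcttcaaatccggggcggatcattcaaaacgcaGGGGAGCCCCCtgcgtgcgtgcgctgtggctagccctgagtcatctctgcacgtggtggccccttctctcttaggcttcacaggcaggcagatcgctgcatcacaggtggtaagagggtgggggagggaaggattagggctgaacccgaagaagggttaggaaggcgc

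The match stood 32 bases before the second Tnfrsf9 start and 157 bases before the Tnfrsf8 start. The windows of Tnfrsf4, Tnfrsf18 and the first Tnfrsf9 start held no match. Windows were found for 31 of the 42 members, and 4 members held a match: Tnfrsf9, Tnfrsf8, Ltb and Tnfrsf25. All 4 had their top class in regulatory or other CD4 T cells, where 12 members with a window were placed, Tnfrsf17 (0.555 CPM) among them. Both strands were searched. Counted by window, 4 of the 35 member windows held a match, against 7.25% of the 32851 RefSeq windows of this length. A match is a description of letters and not a binding site.

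Across classes, the anti-PD-1 over control comparison had 17 higher and 18 lower member differences of 148 counted, against 5.1% higher and 3.33% lower of all genes counted in the same classes. Anti-LIF over control had 20 higher and 16 lower of 141, against 6.06% and 4.14% of all genes. Combo over control had 22 higher and 20 lower of 160, against 5.67% and 4.05%. Combo over anti-PD-1 had 11 higher and 16 lower of 171, against 3.16% and 3.4%, and combo over anti-LIF had 1 higher and 6 lower of 169, against 1.93% and 1.95%. The members' shares lay above those of all genes in every direction but 1, the higher members in combo over anti-LIF (0.592%, against 3.55% for the lower ones). These shares count pairs of a member and a class, and a few members recur over classes. In anti-PD-1 over control, Tnf made 7 of the 18 lower pairs and Cd27 and Tnfrsf9 made 3 each. Tnfsf12 made 4 and Tnfrsf18 made 3 of the 17 higher pairs. The first 3 comparisons share the control library, so their values are given side by side and are not independent.

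**Figure D2:**
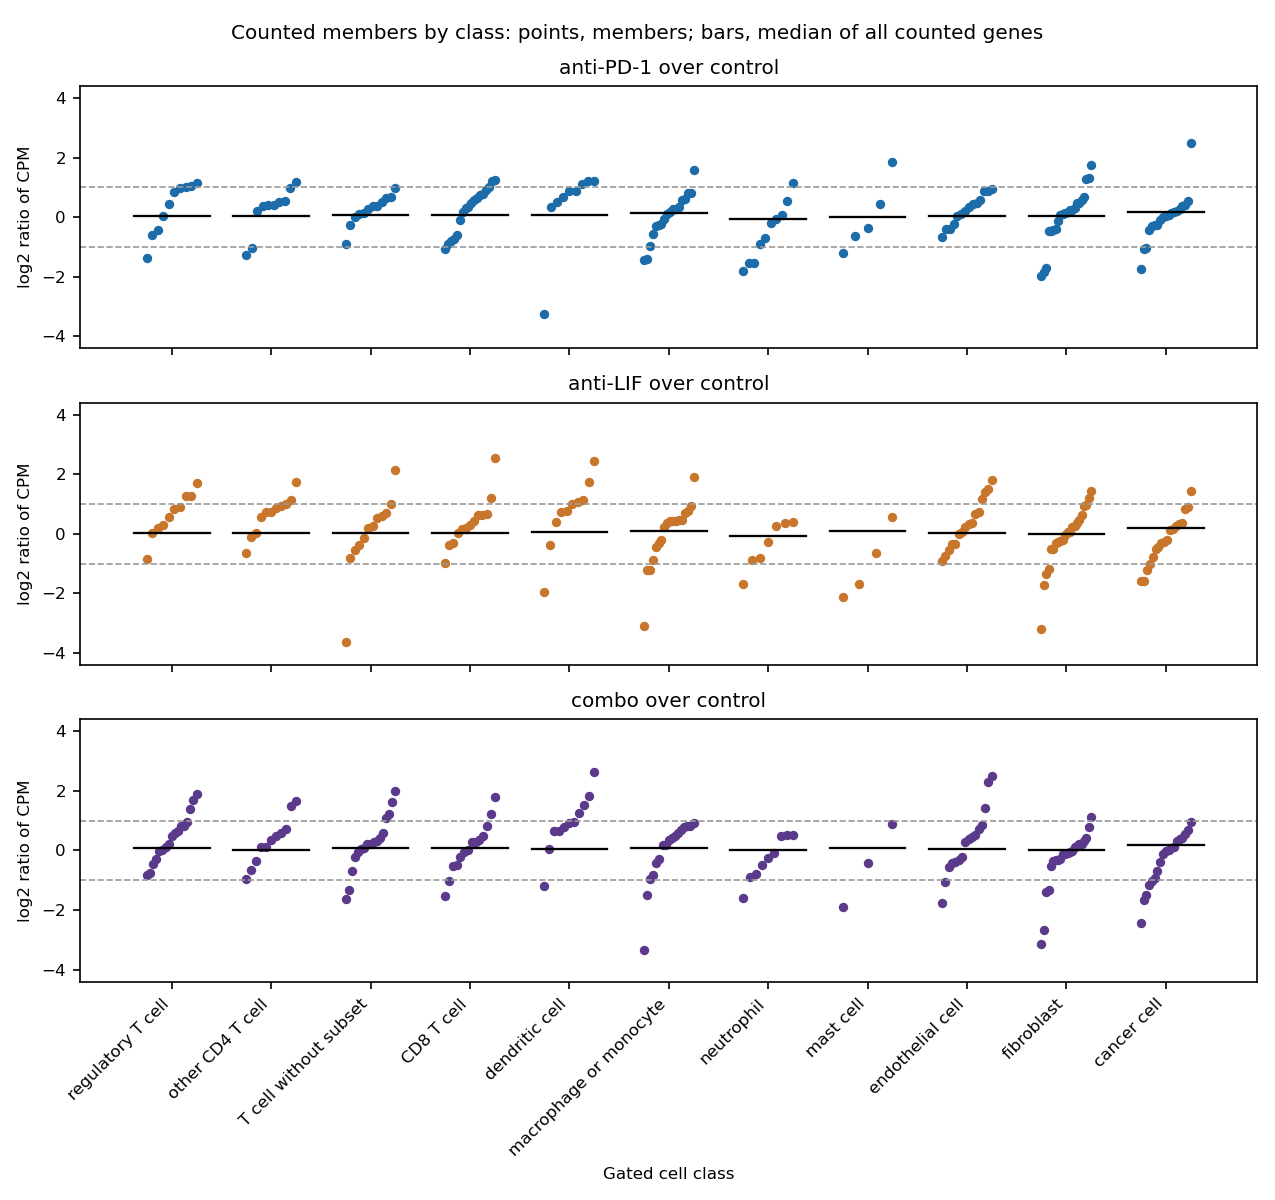
Log2 ratio of each counted member in 11 cell classes, with 1 panel for each of anti-PD-1, anti-LIF and combo over control. Points are members, black bars the median of all genes counted in that class, and dashed lines mark 2-fold; 1 pair with 0 UMIs is not drawn. In regulatory T cells the points lie mostly above 0, with a members' median of 0.63, 0.70 and 0.48 in the anti-PD-1, anti-LIF and combo libraries.

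In regulatory T cells, co-stimulatory Tnfrsf4 and the BAFF and APRIL receptor gene Tnfrsf13b were higher in all treated tumours than in control. Tnfrsf18, also co-stimulatory, was higher in the single-antibody tumours, while Tnfrsf9 was nearly level. Of the members counted there, 3 were higher and 1 lower of 10 in anti-PD-1 (5.99% of all genes in either direction), 3 higher and 0 lower of 10 in anti-LIF (5.97%), and 3 higher and 0 lower of 17 in combo (7.38%). The median log2 ratio of the members was 0.63, 0.70 and 0.48 in the anti-PD-1, anti-LIF and combo libraries, against 0.03, 0.02 and 0.07 for all genes.

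Tnfrsf9 in regulatory T cells was at 1577 CPM in anti-PD-1, 1759 CPM in anti-LIF, 1519 CPM in combo and 1535 CPM in control. The 4 libraries lay close together, and in T cells without a subset, the next class, the gene was at 559, 376, 572 and 665 CPM. Tnfrsf4 was at 1009, 925, 994 and 517 CPM in the same order. All 3 treated libraries were above control by nearly the same amount, with log2 ratios of 0.96 [0.72, 1.21], 0.84 [0.60, 1.08] and 0.94 [0.74, 1.14], short of 2-fold. Tnfrsf1b, the TNF receptor without a death domain, was at 636, 530, 555 and 357 CPM, with control lowest and log2 ratios of 0.83, 0.57 and 0.63. Cd27, the receptor of CD70, was at 476 and 432 CPM under the single antibodies and at 352 CPM in both combo and control.

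Tnfrsf18, which encodes GITR, was at 434 CPM in anti-PD-1, 517 CPM in anti-LIF, 249 CPM in combo and 213 CPM in control regulatory T cells. Either antibody alone went with a high level and the combination with a level near control: the log2 ratio over control was 1.03 [0.65, 1.41] with PD-1 blocked, 1.28 [0.93, 1.63] with LIF blocked and 0.22 [-0.12, 0.57] with both, and it was -1.06 [-1.38, -0.73] in combo over anti-LIF. The anti-PD-1 value fell short of 2-fold under 2 of 10 alternative settings, with 0.94 as the lowest. In other CD4 T cells Tnfrsf18 was at 227, 218, 107 and 99.6 CPM, the same order of libraries as in regulatory T cells apart from the top pair. Its log2 ratios there were 1.19 (anti-PD-1), 1.13 (anti-LIF) and 0.11 (combo), of which the first was 0.66 with the stricter cell filter. In CD8 T cells the gene was at 96.1, 65.2, 34.8 and 41.7 CPM, with a ratio of 1.21 [0.92, 1.48] in anti-PD-1 and -1.45 [-2.08, -0.89] in combo over anti-PD-1. Gm16008, annotated as antisense, overlaps Tnfrsf18 on the opposite strand, and whether counting used the strand is not given in the sources used here.

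Members with fewer UMIs in regulatory T cells had wider intervals. Tnfrsf13b had 17, 28, 51 and 17 UMIs in anti-PD-1, anti-LIF, combo and control, which is 64.8, 94.5, 77.8 and 28.9 CPM. Control was lowest in level, with log2 ratios of 1.16 [0.10, 2.22], 1.69 [0.79, 2.67] and 1.40 [0.61, 2.31]. Tnfrsf25 was at 41.9, 47.3, 53.4 and 13.6 CPM and Ltb, a subunit of the membrane lymphotoxin trimer, at 34.3, 23.6, 35.1 and 10.2 CPM. Both were counted in combo alone against control, at 1.90 [0.84, 3.29] and 1.70 [0.44, 3.37]. Tnfrsf8 was at 15.2, 27.0, 48.8 and 27.2 CPM, highest in combo, with a combo over anti-PD-1 ratio of 1.53 [0.18, 3.64] from 32 and 4 UMIs. Fas was at 64.8, 77.7, 35.1 and 32.3 CPM, high with either antibody alone, and combo over anti-LIF was -1.15 [-2.05, -0.25] (-0.89 at the least among the alternative settings). Tnf was the 1 lower member in anti-PD-1 at -1.37 [-3.00, -0.21], from 6 UMIs against 37 in control, and it was as small as -0.79 under an alternative.

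**Figure D3:**
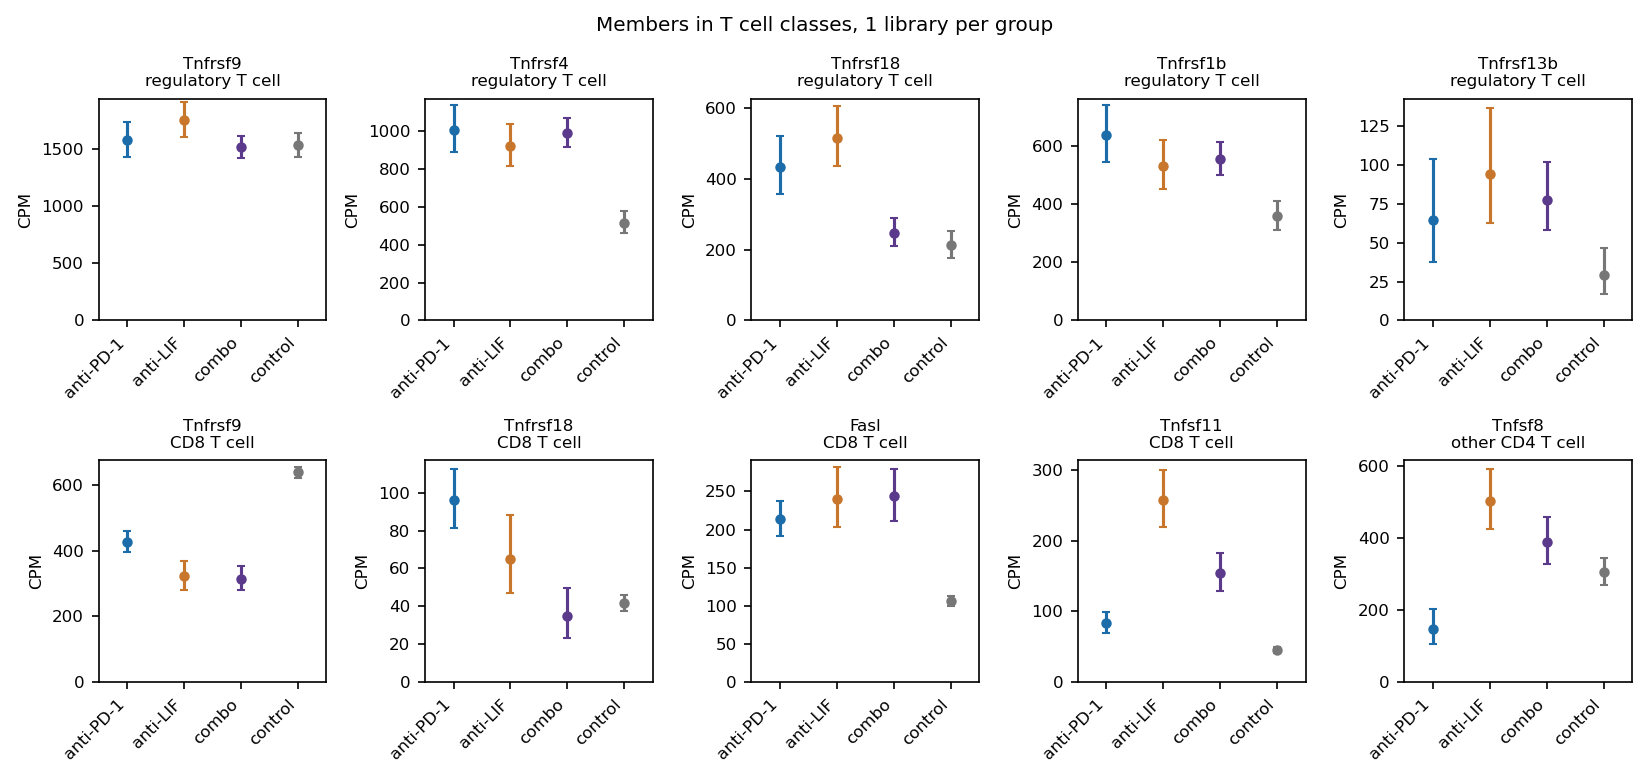
Levels in CPM with exact 95% Poisson intervals of 10 member and class pairs in T cell classes, 1 point for each library in the order anti-PD-1, anti-LIF, combo and control. Fasl in CD8 T cells is higher in the 3 treated libraries (214, 240 and 244 CPM) than in control (106 CPM), and Tnfrsf18 in regulatory T cells is high with either antibody alone (434 and 517 CPM) and not with both (249 CPM).

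In CD8 T cells, Fasl was higher in all treated tumours, Tnfsf11 in those given anti-LIF, and Tnfrsf9 was lower in combo. Of the members counted there, 3 were higher and 1 lower of 18 in anti-PD-1 (6.29% of all genes), 2 higher and 0 lower of 13 in anti-LIF (7.3%), and 2 higher and 2 lower of 14 in combo (7.06%). Fasl, the death ligand of cytotoxic cells, was at 214, 240, 244 and 106 CPM in anti-PD-1, anti-LIF, combo and control. The 3 treated libraries were close to one another and about 2-fold above control, at 1.02 [0.83, 1.20], 1.19 [0.92, 1.43] and 1.21 [0.98, 1.42]. The anti-PD-1 value lay under 2-fold in 4 of 10 alternative settings, down to 0.91, and the anti-LIF value was 0.89 with the stricter cell filter. Clusters divided the class unequally, with cluster 15 holding 12.6%, 8.14% and 8.59% of the CD8 T cells in the anti-PD-1, anti-LIF and combo libraries and 31.5% in control. Within cluster 1 the Fasl ratios were 1.03, 1.18 and 1.24, and within cluster 15 the anti-PD-1 ratio was 0.18.

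Tnfsf11, which encodes RANKL, was at 83.4, 258, 154 and 44.8 CPM in CD8 T cells of anti-PD-1, anti-LIF, combo and control. The anti-LIF library was highest and combo followed, with log2 ratios of 0.90 [0.60, 1.19], 2.53 [2.25, 2.79] and 1.79 [1.49, 2.07], and 1.84 (anti-LIF) and 1.37 (combo) within cluster 1. T cells without a subset showed 76.5, 242, 169 and 54.8 CPM, with ratios of 0.50, 2.15 and 1.62. Other CD4 T cells had another order, at 197, 305, 487 and 154 CPM, with combo highest at 1.66 [1.32, 2.00] over control and 1.30 [0.85, 1.78] over anti-PD-1, the last as low as 0.87 under an alternative. Within cluster 9 these combo ratios were 1.04 and 0.50. The anti-LIF ratio in that class was 0.99 [0.57, 1.39], just short of 2-fold.

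Tnfrsf9 in CD8 T cells was at 427, 323, 316 and 640 CPM in anti-PD-1, anti-LIF, combo and control, highest in control. The log2 ratios were -0.58, -0.99 [-1.20, -0.79] and -1.02 [-1.20, -0.85]; the last was -0.82 with the stricter cell filter and -0.50 within cluster 1. In other CD4 T cells it was at 904, 572, 312 and 615 CPM, high in anti-PD-1 and low in combo, with -1.53 [-1.87, -1.20] in combo over anti-PD-1. Tnfsf10, which encodes the death ligand TRAIL, was at 54.7, 35.0, 40.6 and 23.3 CPM in CD8 T cells, highest in anti-PD-1 at 1.24 [0.85, 1.60], with 0.91 as the lowest value under an alternative. Tnfsf9 had 5 UMIs in combo and 161 in control CD8 T cells, at -1.54 [-3.31, -0.42]. Camta1 overlaps Tnfrsf9 on the opposite strand, as Vamp1 does Cd27 and E230032D23Rik does Tnfrsf22, Tnfrsf23 and Tnfrsf26.

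Tnfsf8, the CD30 ligand, was at 148, 502, 388 and 305 CPM in other CD4 T cells of anti-PD-1, anti-LIF, combo and control. Anti-PD-1 was lowest, at -1.03 [-1.57, -0.56] against control, and combo over anti-PD-1 was 1.38 [0.87, 1.95]. Within cluster 9, which held 78 anti-PD-1, 190 combo and 291 control cells of the class, these ratios were -0.76 and 0.57, both short of 2-fold. In fibroblasts anti-PD-1 was instead highest, at 63.0, 39.6, 28.0 and 25.5 CPM, with 1.30 [1.01, 1.60] over control. That value was 0.56 as a mean over cells, and 1.14, 2.87 and 1.73 within clusters 5, 6 and 12. Tnfrsf25, the receptor DR3, was at 30.3, 72.8, 61.9 and 21.9 CPM in other CD4 T cells, high in anti-LIF (1.73 [0.76, 2.73]) and combo (1.49 [0.54, 2.49]).

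Tnf itself was at lower levels in macrophages, neutrophils, mast cells and dendritic cells of treated tumours, by amounts that differed between classes and antibodies. In macrophages or monocytes it was at 173, 203, 243 and 468 CPM in anti-PD-1, anti-LIF, combo and control. Control was far above the treated libraries, with log2 ratios of -1.43 [-1.54, -1.33], -1.21 [-1.31, -1.10] and -0.95 [-1.04, -0.85]; the anti-LIF value was -0.99 with Leiden clusters as classes. Of all members in this class, 1 was higher and 2 lower of 18 in anti-PD-1 (6% of all genes), 1 higher and 3 lower of 18 in anti-LIF (9.86%), and 0 higher and 2 lower of 17 in combo (9.34%). In neutrophils Tnf was at 243, 481, 707 and 842 CPM, with anti-PD-1 lowest. The anti-PD-1 ratio was -1.79 [-2.02, -1.57] against control (-0.95 with Leiden clusters), and combo over anti-PD-1 was 1.54 [1.29, 1.80]. Cluster 16 held 71.4% of the neutrophils in anti-PD-1, 85.6% in combo and 99.4% in control, and a further 19.0% of the anti-PD-1 cells lay in cluster 26. Within cluster 16 the ratios were -0.91, short of 2-fold, and 1.01.

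In dendritic cells Tnf was at 11.5, 30.7, 52.9 and 123 CPM from 4, 12, 30 and 61 UMIs in anti-PD-1, anti-LIF, combo and control. All 3 treated libraries were low, at -3.25 [-5.33, -1.98], -1.95 [-3.03, -1.09] and -1.20 [-1.89, -0.56]. Mast cells showed 486, 352, 304 and 1129 CPM, with ratios of -1.21, -1.68 and -1.89, and 91.9% of the control UMIs lay in 10 cells. The anti-PD-1 mast cell value was -0.66 with Leiden clusters. In CD8 T cells Tnf was at 37.6, 63.6, 63.8 and 63.1 CPM, lowest in anti-PD-1 at -0.74 [-1.16, -0.36] against control, short of 2-fold. In cancer cells Tnf was at 3.29, 3.33, 2.96 and 3.00 CPM, and no library stood far apart. Over the 10 classes in which Tnf was counted in anti-PD-1, 1 ratio was above 0 and 7 were lower past 2-fold. A list of 13 immediate early and heat shock genes that tissue dissociation can induce, chosen after the data were seen, summed to 11437, 13137, 14348 and 10114 CPM in macrophages and to 9564, 15078, 17381 and 13903 CPM in neutrophils of anti-PD-1, anti-LIF, combo and control. In mast cells the sums were 14508, 14597, 12958 and 6837 CPM, and the part of dissociation in the Tnf values was not tested.

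**Figure D4:**
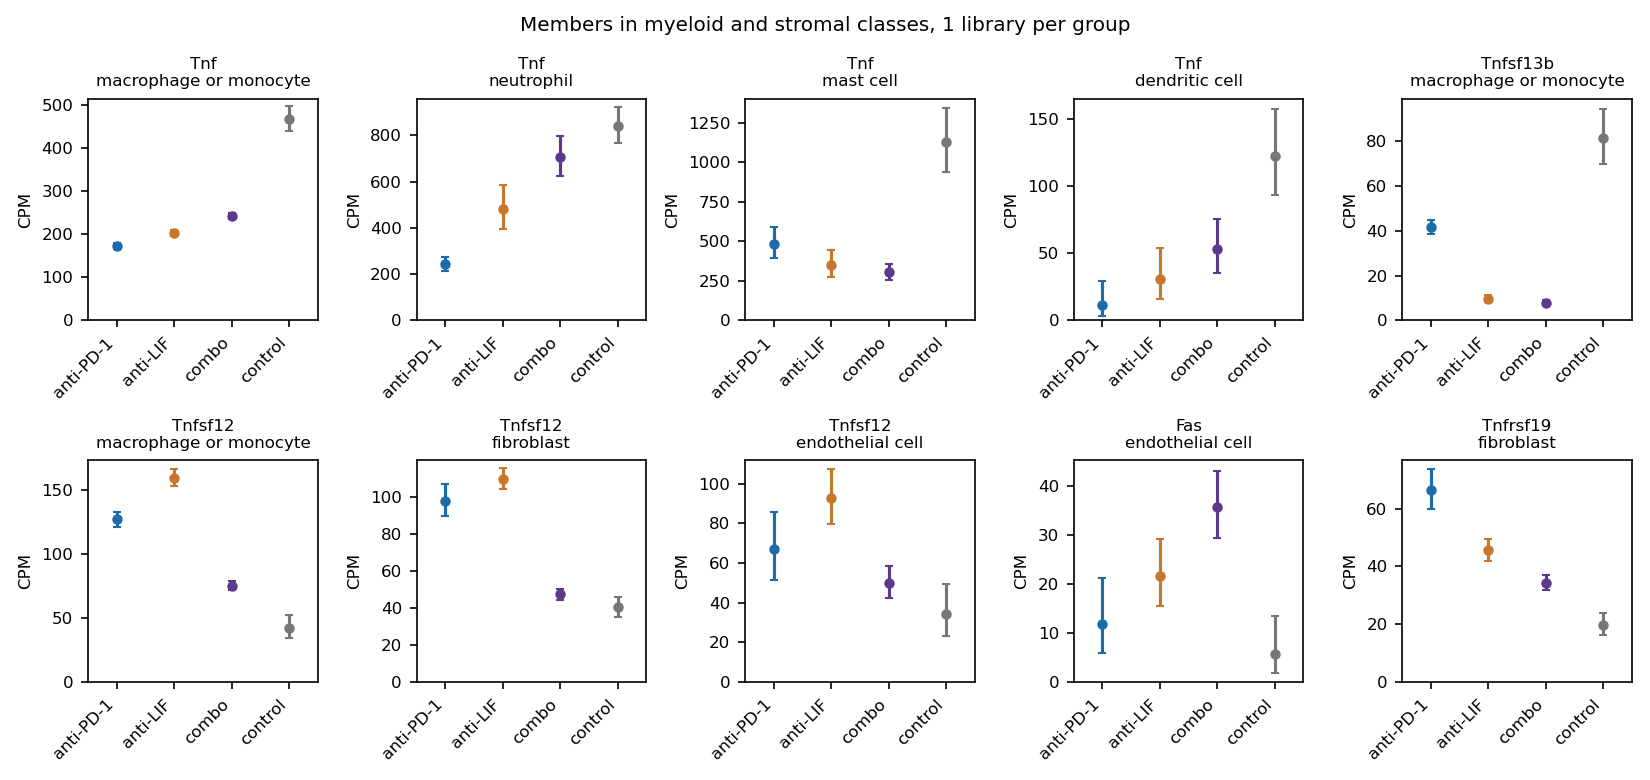
Levels in CPM with exact 95% Poisson intervals of 10 member and class pairs in myeloid and stromal cells, 1 point for each library in the order anti-PD-1, anti-LIF, combo and control. Tnfsf13b in macrophages or monocytes is at 41.6, 9.59 and 7.98 CPM in the treated libraries and 81.6 CPM in control, and Tnfsf12 is at 127, 159, 75.1 and 42.2 CPM.

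Tnfsf13b, which encodes the B cell survival factor BAFF, had the lowest ratio over control of the members counted in macrophages or monocytes in both libraries with anti-LIF. It was at 41.6, 9.59, 7.98 and 81.6 CPM in anti-PD-1, anti-LIF, combo and control. Both libraries with anti-LIF were far under control, with log2 ratios of -3.09 [-3.43, -2.76] and -3.35 [-3.67, -3.04], while anti-PD-1 was at -0.97 [-1.21, -0.72]. Combo over anti-PD-1 was -2.38 [-2.64, -2.13], with -2.79 within cluster 0 and -0.05 within cluster 8 (17 and 15 UMIs). Within cluster 0, which held 34.8% and 36.1% of these cells in anti-LIF and combo and 53.2% in control, the ratios over control were -3.10 and -3.62. In fibroblasts the gene was at 29.2, 28.4, 39.8 and 40.7 CPM, within 2-fold of control in each treated library. Tnfsf13, which encodes the related APRIL, was at 46.8, 56.4, 77.1 and 40.8 CPM in macrophages or monocytes, highest in combo at 0.91 [0.61, 1.25].

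Tnfsf12, which encodes TWEAK, was higher with either antibody alone and less so with both, in several classes. In macrophages or monocytes it was at 127, 159, 75.1 and 42.2 CPM in anti-PD-1, anti-LIF, combo and control, with log2 ratios of 1.58 [1.28, 1.91], 1.91 [1.61, 2.24] and 0.82 [0.53, 1.15]. In fibroblasts it was at 98.0, 110, 47.3 and 40.3 CPM, again with the single-antibody libraries on top, at 1.28 [1.05, 1.51], 1.44 [1.24, 1.66] and 0.23 [0.02, 0.45]. Endothelial cells had 66.8, 92.9, 50.0 and 34.4 CPM, with 1.41 [0.87, 2.04] in anti-LIF. Cancer cells, with levels of 6.40, 3.11, 2.23 and 1.14 CPM, had 2.48 [2.02, 2.96] under anti-PD-1 and 1.45 [0.84, 2.04] under anti-LIF. The ratio was above 0 in 5 of 5 counted classes in anti-PD-1 (0.94 to 2.48) and in 4 of 4 in anti-LIF (1.41 to 1.91), and it was below 0 in 5 of 5 classes in combo over anti-LIF (-1.21 to -0.48). Tnfsf13os on the opposite strand and the read-through gene Tnfsfm13 on the same strand overlap Tnfsf12, so reads of these genes may not be told apart. The labels name 2 sequencing instruments without saying which library ran on which, and their part in a difference seen in many classes was not tested.

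Neutrophils had further lower members. Tnfsf14, which encodes LIGHT, was at 72.9, 116, 122 and 215 CPM in anti-PD-1, anti-LIF, combo and control, highest in control, with -1.55 [-1.99, -1.13] in anti-PD-1 (-0.63 with Leiden clusters and -0.77 within cluster 16). Tnfrsf12a, the TWEAK receptor gene, was at 43.2, 37.0, 41.5 and 127 CPM, with all treated libraries at a similar low level. Its ratios were -1.55, -1.70 [-3.04, -0.72] and -1.58, the second from 8 UMIs in anti-LIF against 71 in control. As a mean over cells the first was -0.74, and the second was as small as -0.95 under an alternative. Within cluster 16 the ratios were -1.12, -1.91 and -1.62. The neutrophils' death receptor Fas was at 76.7, 102, 114 and 80.5 CPM and Tnfrsf1a at 216, 176, 210 and 147 CPM, with no ratio past 2-fold.

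Dendritic cells had more of most counted members in treated tumours, with a members' median log2 ratio of 0.87, 0.88 and 0.92 in the anti-PD-1, anti-LIF and combo libraries against 0.06, 0.06 and 0.05 for all genes. Cd40 was at 228, 271, 240 and 125 CPM in anti-PD-1, anti-LIF, combo and control. Control was lowest, with ratios of 0.87 [0.37, 1.37], 1.12 [0.66, 1.60] and 0.94 [0.50, 1.40]. Tnfsf9, the 4-1BB ligand gene, was at 107, 123, 111 and 58.3 CPM and Tnfsf4, the OX40 ligand gene, at 74.9, 76.8, 74.1 and 46.2 CPM, and control was again lowest for both. Their highest ratios were 1.07 [0.38, 1.79] and 0.73 [-0.10, 1.58], both in anti-LIF. Under an alternative, the anti-LIF ratio was as low as 0.50 for Tnfsf9 and 0.98 for Cd40. Fas was at 43.2, 56.3, 60.0 and 16.1 CPM, with 1.75 [0.59, 3.19] in anti-LIF and 1.83 [0.76, 3.22] in combo. The gate did not divide these dendritic cells by type. Its dendritic cell markers had a median of 9, 11, 19 and 7 UMIs per cell in anti-PD-1, anti-LIF, combo and control. The part of a changed mix of dendritic cells in these values was not tested.

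The receptors Tnfrsf9 and Tnfrsf4, better known from T cells, were also higher in this class. Tnfrsf9 was at 95.1, 220, 118 and 40.2 CPM in dendritic cells of anti-PD-1, anti-LIF, combo and control, with anti-LIF highest at 2.43 [1.74, 3.23]. Of those anti-LIF UMIs, 82.6% lay in 10 cells, and the anti-PD-1 ratio of 1.23 was 0.23 with the stricter gate, and the combo ratio of 1.53 was as low as 0.82. Tnfrsf4 was at 54.7, 23.0, 42.4 and 6.03 CPM, with 2.62 [1.09, 5.19] in combo from 24 UMIs against 3 in control. The 10 T cell markers of the gate summed to 54.7, 35.9, 17.6 and 72.4 CPM in these cells (7, 7, 3 and 7 of 10 detected, with Trdc and Tcrg-C1 at 0 in all 4 libraries), and their part was not tested. The class held 102, 128, 137 and 119 cells, and it was not separated when Leiden clusters were used as classes.

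Fibroblasts had Tnfrsf19 higher in the single-antibody libraries and Tnfrsf21 lower in the libraries with anti-LIF. Of the members counted there, 3 were higher and 3 lower of 22 in anti-PD-1 (7.79% of all genes), 2 higher and 4 lower of 22 in anti-LIF (6.88%), and 1 higher and 4 lower of 22 in combo (6.1%). Tnfrsf19, the orphan receptor TROY, was at 66.6, 45.5, 34.4 and 19.7 CPM in anti-PD-1, anti-LIF, combo and control. Anti-PD-1 was highest and control lowest, with ratios of 1.75 [1.44, 2.08], 1.20 [0.91, 1.52] (0.96 at the lowest) and 0.80 [0.51, 1.11]. Within clusters the anti-PD-1 ratio was as low as 0.62 (cluster 6) and the anti-LIF ratio as low as 0.57 (cluster 12). Tnfrsf21, the death receptor DR6, was at 21.5, 5.67, 5.47 and 14.4 CPM, low in both libraries with anti-LIF, at -1.34 [-1.82, -0.87] and -1.40 [-1.82, -0.97] against control. Combo over anti-PD-1 was -1.98 [-2.36, -1.59], and the combo over control value was -0.87 with Leiden clusters and -0.83 as a mean over cells. Within cluster 5, which held 40% of these cells in anti-LIF, 51.5% in combo and 52.5% in control, Tnfrsf21 lay the other way, at 0.68 and 0.56 from 22, 40 and 7 UMIs. Within cluster 12 the ratios were -1.57 and -1.60. Tnfrsf26 was the higher member in combo, at 1.13 [0.44, 1.99] and as low as 0.88 under an alternative.

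Endothelial cells had Fas and Tnfsf9 higher in the libraries with anti-LIF. Of the members counted there, 0 were higher and 1 lower of 15 in anti-PD-1 (9.14% of all genes), 4 higher and 0 lower of 16 in anti-LIF (9.83%), and 3 higher and 2 lower of 16 in combo (8.55%). Fas had 11, 42, 110 and 5 UMIs in anti-PD-1, anti-LIF, combo and control, which is 11.8, 21.6, 35.7 and 5.73 CPM. Combo was highest, with 1.79 [0.57, 3.61] in anti-LIF, 2.51 [1.37, 4.29] in combo and 1.54 [0.70, 2.64] in combo over anti-PD-1. Tnfsf9 was at 14.0, 17.4, 30.9 and 5.73 CPM, in the same order, with 1.49 [0.24, 3.32] in anti-LIF and 2.30 [1.16, 4.08] in combo. Tnfsf13 was at 30.1, 36.9, 44.5 and 16.1 CPM, at 1.16 (0.94 at the lowest) with anti-LIF and 1.43 with combo. The TRAIL pair Tnfsf10 (47.4, 53.4, 51.0 and 41.3 CPM) and Tnfrsf10b (54.9, 62.1, 64.7 and 39.0 CPM) had no ratio past 2-fold.

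In cancer cells Tnfrsf12a, the receptor of TWEAK, was high in every library, at 549, 580, 600 and 482 CPM in anti-PD-1, anti-LIF, combo and control. The libraries were close, with ratios of 0.19 [0.15, 0.22], 0.27 [0.23, 0.30] and 0.31 [0.28, 0.34], and the median of all genes in this class was itself 0.17, 0.21 and 0.19. Of the members counted there, 1 was higher and 3 lower of 19 in anti-PD-1 (7.51% of all genes), 1 higher and 4 lower of 18 in anti-LIF (13.4%), and 0 higher and 5 lower of 19 in combo (11.8%). Fas was at 25.0, 11.4, 20.2 and 26.4 CPM, low in anti-LIF at -1.21 [-1.46, -0.98] (-0.95 with Leiden clusters). Within cluster 2 that ratio was -0.25 and within cluster 4 it was 0.15; a different group of cells, cluster 10, held 40.4% of the cancer cells in anti-LIF. Tnfsf9 was at 38.9, 37.3, 48.4 and 46.1 CPM and within 2-fold in each treated library. Tnfsf13 was at 4.58, 2.05, 3.05 and 6.21 CPM and Tnfsf13b at 5.25, 3.11, 3.32 and 6.33 CPM, both lowest in anti-LIF at -1.58 [-2.20, -1.05] and -1.01 [-1.51, -0.57], of which the last was -0.90 under an alternative. Within cluster 2 these ratios were 0.09 and -0.27.

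Cd27 and Tnfrsf9 were lower in treated libraries in several classes that are not T cells. Cd27 had 0 UMIs in anti-PD-1 endothelial cells against 23 in control, at least 8.16-fold lower when 3 counts are taken as the floor of that library. In fibroblasts Cd27 was at 1.82, 0.700, 0.748 and 6.75 CPM in anti-PD-1, anti-LIF, combo and control, with control highest and ratios of -1.84, -3.21 and -3.15. Tnfrsf9 was at 3.47, 4.20, 2.15 and 13.9 CPM in fibroblasts, at 15.3, 17.3, 14.2 and 39.9 CPM in macrophages or monocytes, and at 8.40, 5.73, 6.05 and 17.3 CPM in cancer cells. Control was highest in all of these, and with the stricter gate the macrophage ratios were -0.52, -0.31 and -0.74, all short of 2-fold. The summed 10 T cell markers moved in the same way, at 21.9, 31.3, 23.2 and 157 CPM in fibroblasts, 45.2, 33.5, 24.8 and 247 CPM in macrophages or monocytes, 6.83, 6.16, 6.28 and 22.4 CPM in cancer cells and 87.2, 43.1, 14.6 and 357 CPM in endothelial cells. All 10 were detected in fibroblasts and macrophages, Tcrg-C1 was at 0 in anti-LIF cancer cells, and in endothelial cells Trbc1 was at 0 in anti-PD-1 and combo, Tcrg-C1 in anti-PD-1 and anti-LIF, and Cd5 and Trdc in control. T cells had sums of 6384 to 8936 CPM, and the part of T cell RNA in these Cd27 and Tnfrsf9 values was not tested.

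Combo differed from anti-LIF in 7 member and class pairs. Tnfrsf11a, which encodes RANK, was the higher one, at 97.1 CPM in combo and 30.7 CPM in anti-LIF dendritic cells (1.61 [0.74, 2.70]). The 6 lower ones were Tnfrsf18 in regulatory and in other CD4 T cells, Fas in regulatory T cells, Tnfsf12 in fibroblasts (-1.21 [-1.33, -1.10]) and in macrophages or monocytes (-1.08 [-1.18, -0.99]), and Tnfrsf11b in endothelial cells. Tnfrsf11b had 8 UMIs in combo and 19 in anti-LIF, at -1.86 [-3.31, -0.65]. Tnfrsf18 in other CD4 T cells, at -1.02 [-1.65, -0.43], fell short of 2-fold under 4 of 10 alternative settings.

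Downstream of the receptors, 41 genes for TRAF and death-domain adaptors, kinases, ubiquitin enzymes, inhibitors and NF-kappaB subunits were followed in the same way. They had 14 higher and 15 lower of 339 counted in anti-PD-1 over control, 18 and 14 of 330 in anti-LIF over control, and 22 and 10 of 353 in combo over control. Combo over anti-PD-1 had 6 higher and 3 lower of 352, and combo over anti-LIF 1 higher and 6 lower of 338. These shares, 4.13% and 4.42%, 5.45% and 4.24%, 6.23% and 2.83%, 1.70% and 0.852%, and 0.296% and 1.78% in the same order, lay on both sides of those of all genes given above.

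In dendritic cells the median log2 ratio of these genes was 0.52, 0.87 and 0.70 in the anti-PD-1, anti-LIF and combo libraries, against 0.06, 0.06 and 0.05 for all genes. Relb, the NF-kappaB subunit of the CD40 and lymphotoxin pathway, was at 262, 369, 388 and 125 CPM in anti-PD-1, anti-LIF, combo and control, lowest in control, with 1.07 [0.59, 1.56], 1.56 [1.13, 2.02] and 1.63 [1.23, 2.07]. Traf1, an adaptor of 4-1BB and TNF receptor 2, was at 513, 535, 575 and 281 CPM in that class, with 0.86, 0.93 and 1.03. The part of a changed mix of dendritic cells was not tested for these genes. In neutrophils the median was -0.50 in anti-PD-1 against -0.05 for all genes. Tnfaip3, which encodes the NF-kappaB inhibitor A20, was at 244, 542, 733 and 842 CPM there, lowest in anti-PD-1 at -1.79 [-2.02, -1.57], the same class and library in which Tnf was low. Cluster 26 held 19.0% of the anti-PD-1 neutrophils, and its part in the Tnfaip3 value was not tested.

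In cancer cells the NF-kappaB inhibitor genes Tnfaip3 and Nfkbia were lower in all treated libraries. Cluster 4 held 34.8% of the cancer cells in control and 6.29% in combo, and the part of such shifts in the downstream values was not tested. Tnfaip3 was at 34.6, 26.2, 23.4 and 115 CPM in anti-PD-1, anti-LIF, combo and control, with control highest and ratios of -1.73 [-1.85, -1.62], -2.13 [-2.29, -1.98] and -2.30 [-2.43, -2.17]. Nfkbia was at 830, 486, 580 and 1973 CPM, in a like order, at -1.25, -2.02 and -1.77. Traf2, the adaptor gene of both TNF receptors, was at 2.72, 5.73, 2.96 and 0.940 CPM, at 1.53, 2.60 and 1.65. In CD8 T cells Tnfaip3 lay the other way, at 1207, 1134, 1157 and 585 CPM, with control lowest and ratios of 1.04, 0.95 and 0.98. Nfkbia did not: in CD8 T cells it was at 506 CPM in anti-PD-1 and 1146 CPM in control, at -1.18 [-1.28, -1.07]. In regulatory T cells Rel, the NF-kappaB subunit c-Rel, was at 301, 270, 267 and 146 CPM, lowest in control, with 1.04 [0.58, 1.50] in anti-PD-1.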

How the data were processed

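The deposited matrices hold counts, whole-number UMIs of each gene in each cell barcode, and the deposited feature and barcode lists hold names. Per the submitters' processing notes, mm10 and Seurat 4.0.3 were named without a role; the aligner and the use of strand are not given in the sources used here. Per the labels' protocols, libraries were made with a SeekOne MM 3' kit from dissociated tumours.

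Cells needed at least 200 detected genes, with mitochondrial UMIs making up at most 20%. A cell was placed in a class when at least 2 of that class's markers were detected and the next class had at most 50% of that count; T cells were divided by Cd8a, Cd8b1, Foxp3, Ikzf2, Il2ra and Cd4. The thresholds of the gate were set after the depth of the cells was seen, and no member is a marker. Doublets were not called beyond this gate. Sums of UMIs were formed for each class of each library, and 0.5 counts were added for log2 ratios. Exact Poisson and conditional 95% intervals and floors of 3 counts cover counting error only. Classes with at least 50 cells in both libraries were compared, over 5 comparisons. The members, the 41 downstream genes, the markers and the tests were chosen with earlier results of these data known. Members named for their level were those at 10 CPM or more in their top class. The differences described are a selection from the counted member and class pairs. Some pairs past 2-fold are not described, such as Tnfsf4 in T cells without a subset in anti-LIF over control (-3.64, from 1 and 118 UMIs). Downstream genes named were chosen among those past 2-fold after their values were seen. Alternatives were another cell filter, another gate, Leiden clusters (resolution 1) as classes, means over cells, median scaling, other count minimums and priors, and removal of shared barcodes. Scripts were tested on simulated data. Python 3.11.15, numpy 2.4.6, scipy 1.17.1, pandas 2.3.3, scanpy 1.11.5, leidenalg 0.10.2, igraph 0.11.9 and matplotlib 3.10.9 were used.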

Additional observations from a re-analysis of the deposited data

Results flagged for a closer look

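These members were past 2-fold in opposite directions in a pair of cell classes under the same comparison. Each value is the difference between the 2 log2 ratios. None of these differences was tested, since each group had 1 library. In fibroblasts the summed 10 T cell markers were at 21.9, 31.3, 23.2 and 157 CPM in anti-PD-1, anti-LIF, combo and control. The part of T cell RNA in the fibroblast values of Cd27 and Tnfrsf9 was not tested.

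In anti-PD-1 over control, Tnfrsf9 differed by 3.20 between dendritic cells (1.23) and fibroblasts (-1.97). Tnfrsf12a differed by 2.68 between dendritic cells (1.12) and neutrophils (-1.55), Tnfsf8 by 2.33 between fibroblasts (1.30) and other CD4 T cells (-1.03), and Tnfsf10 by 2.30 between CD8 T cells (1.24) and cancer cells (-1.06). The dendritic cell values rested on 33 UMIs for Tnfrsf9 and 17 UMIs for Tnfrsf12a in anti-PD-1. Tnfrsf12a in dendritic cells was under 2-fold in 4 of 8 alternatives, down to 0.06, and its interval reached -0.03. Tnfsf10 in cancer cells was under 2-fold in 3 of 10, down to -0.22, and Tnfsf8 in other CD4 T cells was -0.76 within cluster 9.

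In anti-LIF over control, Tnfrsf9 differed by 4.15 between dendritic cells (2.43) and fibroblasts (-1.72). Fas differed by 3.00 between endothelial cells (1.79) and cancer cells (-1.21), and Tnfsf13 by 2.74 between endothelial cells (1.16) and cancer cells (-1.58). Within cancer cell cluster 2 the values were -0.25 for Fas and 0.09 for Tnfsf13, and Fas was 0.15 within cluster 4.

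In combo over control, Cd27 differed by 4.41 between NK cells (1.27, from 33 and 13 UMIs) and fibroblasts (-3.15). Tnfrsf9 differed by 4.21 between dendritic cells (1.53) and fibroblasts (-2.68). Tnfsf9 differed by 3.84 between endothelial cells (2.30) and CD8 T cells (-1.54), and Tnfrsf25 by 3.16 between T cells without a subset (2.00) and cancer cells (-1.17). Tnfsf13 differed by 2.44 between endothelial cells (1.43) and cancer cells (-1.02), and Tnfrsf11a by 2.32 between dendritic cells (1.25) and endothelial cells (-1.07). Within cancer cell cluster 2, Tnfrsf25 was at -0.10 and Tnfsf13 at -0.06, and Tnfsf13 was at 0.20 within cluster 4. In cancer cells Tnfrsf25 was under 2-fold in 3 of 10 alternatives, down to -0.57, and Tnfsf13 in 4 of 10, down to -0.39.

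In combo over anti-PD-1, Tnfrsf25 differed by 3.16 between macrophages or monocytes (2.00, from 24 and 4 UMIs) and cancer cells (-1.16), and Tnfsf8 by 2.55 between other CD4 T cells (1.38) and fibroblasts (-1.17). Within clusters, Tnfrsf25 was at -0.44 (cancer cell cluster 2) and Tnfsf8 at 0.57 (other CD4 T cell cluster 9).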

How the results depend on the processing

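The 147 member ratios past 2-fold gave 1372 values under 10 alternative settings. Of these values, 1294 stayed within the main interval, 78 moved outside it and 0 changed sign. Settings with another minimum count leave each ratio as it is, so their 84 (30 expected UMIs) and 147 (no minimum) values stayed by construction. Such settings are also among the alternatives counted for each ratio above. The 147 ratios were chosen as past 2-fold, so the tally does not speak for members nearer to no difference. The moves came from means over cells (26), Leiden clusters (23), the stricter cell filter (16), the stricter gate (12) and median scaling (1). The number of member and class pairs past 2-fold depended most on the minimum count. With 30 expected UMIs it was 22 (anti-PD-1), 23 (anti-LIF) and 22 (combo) over control, 13 in combo over anti-PD-1 and 4 in combo over anti-LIF. With no minimum it was 154, 168, 188, 141 and 108 in the same order. Combo over anti-LIF, with 7 pairs, had 12 with the stricter cell filter, 12 with the stricter gate and 23 with means over cells. The downstream genes had 18, 14, 20, 5 and 1 pairs past 2-fold with 30 expected UMIs and 69, 81, 80, 45 and 44 with no minimum. They had 16 in anti-PD-1 over control with Leiden clusters and 13 in combo over anti-LIF with means over cells. Low counts admit more pairs past 2-fold by construction, and the cause of the other moves was not tested. The numbers counted and the shares of all genes under these settings are not given, so these tallies are not set against a background. The top class moved for 13 members under some setting, 7 of them with Leiden clusters, which gave no dendritic cell class. No paired analysis was possible because each group had 1 library and no result came from a test.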
